A study of Mus musculus with 28 samples.

Results

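The genes examined here encode the machinery of mitosis and chromosome segregation. They were followed in the C10 mouse Pre-B cell line (HAFTL derived), in which a C/EBPα-ER transgene, the myeloid transcription factor C/EBPα fused to the estrogen receptor, converts the cells into macrophages. A list of 48 gene symbols was matched to the deposited expression table, and each matched 1 of its 55450 rows. RNA-seq was done on 3 biological replicates, as the labels name them, at each of 0h, 1h, 12h and 48h, 12 libraries in all. The 0h cells were uninduced, and the other cells received 100 nM of β-estradiol, 10 nM of IL-3 and CSF-1 together, so the effects of estradiol, cytokines and time in culture cannot be told apart. Every group was of the same line and carried the transgene. Values are TPM, transcript abundances that are scaled to transcript length and to a fixed library total, and hold no record of sequencing depth. The study describes the depth of its libraries, which was not used here, so the number of reads behind each value was not examined. The 2 most abundant entries took 70.3% to 82.9% of the TPM of a library, and all genes outside the 20 most abundant shared from 58300 TPM, at 48h, to 132000 TPM, at 1h. Results are therefore also given after median-of-ratios scaling, which sets the typical gene level between libraries.

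In mitosis the replicated chromosomes are condensed, attached to a spindle of microtubules through their kinetochores, and pulled apart. The spindle checkpoint holds the cell until each kinetochore is attached, and the anaphase-promoting complex (APC/C) then marks securin and the mitotic cyclins for destruction. The central spindle and a contractile ring finally divide the cytoplasm. Most of these genes are transcribed in G2 and mitosis and are little expressed in cells that have left the cycle. The promoters of many hold a CHR (cell cycle genes homology region), the DNA element read by the MuvB complex, together with CCAAT boxes, which bind NF-Y. MuvB joins p107 or p130 and E2F4 as the DREAM repressor in resting cells, and B-MYB and FOXM1 as an activator in dividing cells.

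Promoters of 40 of the 48 genes were found in the RefSeq table (GRCm38.p6, the build of the files), each from 250 bases before to 50 after the annotated start. Cdc25c, Aurkb, Incenp, Spc24, Tpx2, Dlgap5, Kif20a and Smc4 had no entry. A CHR motif (TTTGAA or TTCGAA, searched on both strands) was present in 33 of the 40 promoters (82.5%), against 21.7% of 27025 genes with a promoter and 17.5% of the 9509 of these that were tested for expression. CCAAT on either strand was present in 29 (72.5%), against 41.1% of all genes and 43.2% of tested genes. Both were present in 28 (70%), against 9.65% of all genes and 8.64% of tested genes. A CHR and a CCAAT match can share an end base. Of the E2F motifs, TTTCCCGC was found in 1 promoter and TTTGGCGC in 2. These matches are descriptions of letters in a window and not measured binding.

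The CHR matches lay close to the annotated start. Of 41 matches, 31 (75.6%) began between -50 and +50 of it, against 25.2% of the 7260 matches in 32851 windows of all genes. Their median position was +3, while the 59 CCAAT matches had a median position of -55. In 17 promoters there were 2 or more CCAAT boxes, and 6 promoters held neither motif. All 5 promoters of spindle and chromosome motors (Kif11, Kif15, Kif22, Kif2c and Kif4) held a CHR. So did all 6 of central spindle and cytokinesis genes that had an entry, and 8 of 10 of spindle checkpoint and anaphase genes. The numbers were 3 of 3 for mitotic entry genes, 4 of 5 for condensin and chromosome surface and 4 of 6 for centromere and kinetochore. They were 2 of 3 for spindle assembly proteins and 1 of 2 for the chromosomal passenger complex.

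**Figure D1:**
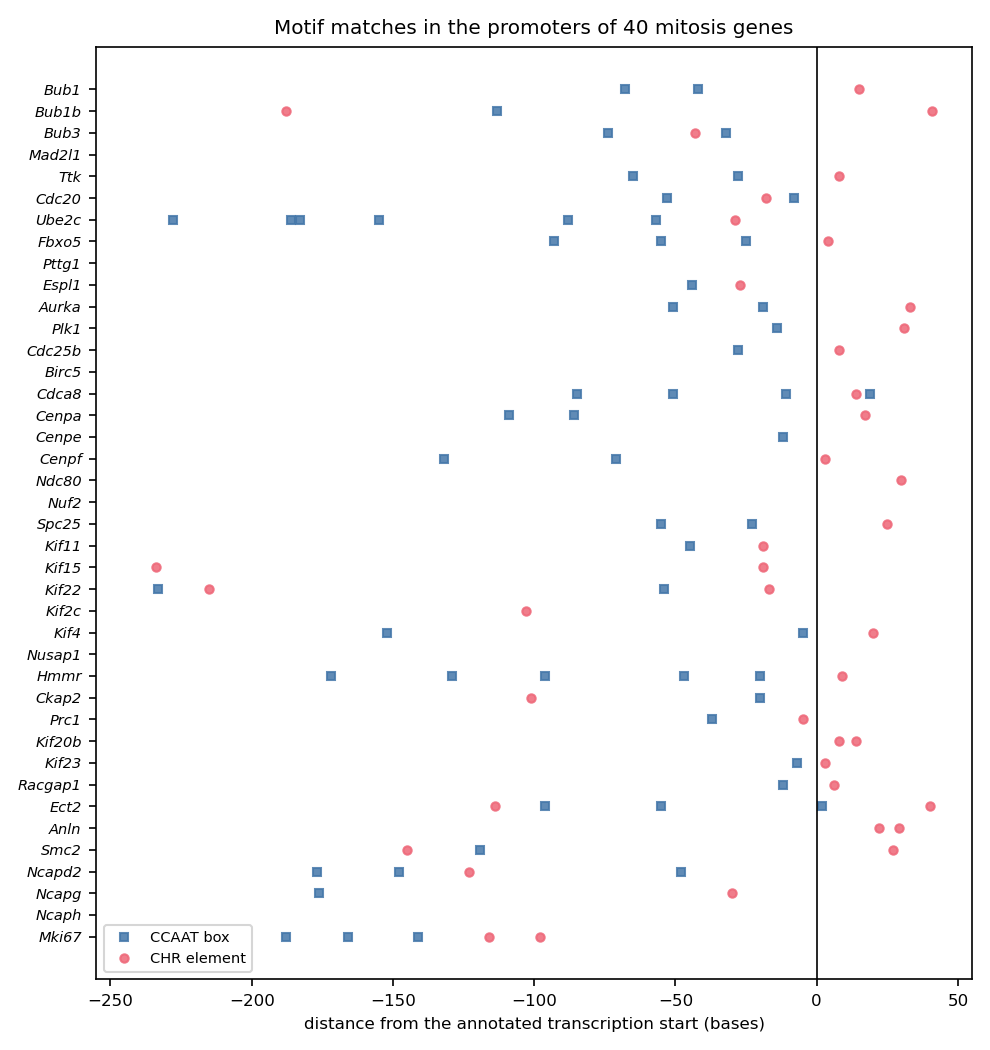
Position of each CHR match (circles) and each CCAAT match (squares) in the promoters of 40 mitosis genes, with the distance in bases from the annotated start (vertical line) on the horizontal axis and 1 gene a row. Of 41 CHR matches, 31 lie within 50 bases of the start (median +3), and the median of the CCAAT matches is -55.

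The promoters below belong to the 5 genes with both motifs with the lowest log2 fold changes at 48h on the log2(TPM + 0.1) scale, and are shown as examples of promoters that hold a CHR and a CCAAT box. In Mki67 both CHR matches lie further than 50 bases from the RefSeq start. Each is 150 bases upstream of the outermost annotated start, written 5′ to 3′ on the strand of the gene in GRCm38.p6. Capitals mark CHR motifs (TTTGAA, or TTCAAA on the other strand) and CCAAT boxes (CCAAT, or ATTGG on the other strand).
Ube2c (chr2:164769748-164769897, plus strand): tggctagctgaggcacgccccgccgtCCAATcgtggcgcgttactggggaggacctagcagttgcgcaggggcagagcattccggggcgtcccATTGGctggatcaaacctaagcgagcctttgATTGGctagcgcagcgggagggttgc
Mki67 (chr7:135716451-135716600, minus strand): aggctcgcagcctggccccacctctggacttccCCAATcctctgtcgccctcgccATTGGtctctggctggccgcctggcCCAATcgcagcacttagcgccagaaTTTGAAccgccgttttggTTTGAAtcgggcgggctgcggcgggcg
Cdc20 (chr4:118437353-118437502, minus strand): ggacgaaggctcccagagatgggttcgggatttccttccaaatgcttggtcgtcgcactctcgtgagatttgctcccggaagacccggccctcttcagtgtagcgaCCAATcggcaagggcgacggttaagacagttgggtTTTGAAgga
Bub1b (chr2:118598052-118598201, plus strand): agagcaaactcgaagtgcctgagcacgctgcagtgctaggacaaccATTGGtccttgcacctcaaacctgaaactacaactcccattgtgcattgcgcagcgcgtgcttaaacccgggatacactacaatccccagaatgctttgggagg
Kif11 (chr19:37376232-37376381, plus strand): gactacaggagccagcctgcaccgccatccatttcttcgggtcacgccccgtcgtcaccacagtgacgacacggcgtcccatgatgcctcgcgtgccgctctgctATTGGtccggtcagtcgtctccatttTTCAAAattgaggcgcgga

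In Ube2c and Bub1b a CHR lies at or beyond the outermost start, and 30 bases around it are given. Bub1b holds a further CHR match (TTCGAA) at -188 to -183 of the RefSeq start, upstream of the printed stretch.
Ube2c CHR (chr2:164769888-164769917, plus strand): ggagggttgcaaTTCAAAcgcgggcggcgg
Bub1b CHR (chr2:118598231-118598260, plus strand): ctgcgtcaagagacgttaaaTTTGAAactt
For comparison, Ckap2, chosen after its values were seen as the gene that fell least, also holds both motifs.
Ckap2 (chr8:22185820-22185969, minus strand): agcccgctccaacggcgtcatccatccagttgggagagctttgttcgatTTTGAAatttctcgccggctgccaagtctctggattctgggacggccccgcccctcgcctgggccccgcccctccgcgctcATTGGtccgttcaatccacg
The size of the fall at 48h was compared between promoters with and without each motif, with no test. The median log2 fold change was -4.39 in the 33 genes with a CHR, Ube2c and Kif2c included. It was -4.78 in the 7 without (Mad2l1, Pttg1, Birc5, Cenpe, Nuf2, Nusap1 and Ncaph). It was -4.38 in the 29 with CCAAT and -4.76 in the 11 without. At 48h the mean TPM of the 48 genes had a median of 0.132. For genes this near 0, the fold change on the log2(TPM + 0.1) scale depends on the 0h level. These medians therefore cannot show whether a motif goes with a larger or smaller fall.

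At 48h all 48 genes were lower than at 0h, and none was higher (15.9% of all genes, and 24.6% after scaling). The test was limma on log2(TPM + 0.1) over the 16412 genes whose TPM averaged 0.1 or more, with a Benjamini-Hochberg adjusted p under 0.05, and 27.2% of the genes tested were lower by it. The 3 libraries at 48h lay below the 3 at 0h in 48 of 48 genes, against 30.8% of all genes. With a log2 fold change beyond 2 as well, 44 of the 48 were called, against 10% of all genes. The median log2 fold change of the list was -4.37, and -4.33 without Ube2c and Kif2c, which were listed at 0 in every 48h library, while that of all genes tested was -0.18. After median-of-ratios scaling 47 of 48 were lower, against 21.9% of all genes, with 44 beyond a log2 fold change of 2 (7.63%), and the median was -4.21 against 0.08. The exception was Ckap2.

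Summed over the 48 genes, the 0h libraries held 287 to 358 TPM and the 1h libraries 423 to 543 TPM. By 12h the sum was 179 to 225 TPM and by 48h 20.6 to 24.2 TPM. These ranges did not overlap between any time points. After scaling the 0h (345 to 356) and 1h (327 to 365) ranges overlapped, while 12h (170 to 179) and 48h (31.2 to 33.8) stayed apart. At 48h the genes kept from 0% to 51.3% of their mean TPM at 0h, with a median of 2.78% (3.72% after scaling). Of the 48, 35 were above 0 in every 48h library, 6 were at 0 in 1 library, 5 in 2 and 2 in all 3. In bulk RNA, fewer dividing cells and less of these RNAs in each cell cannot be told apart.

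**Figure D2:**
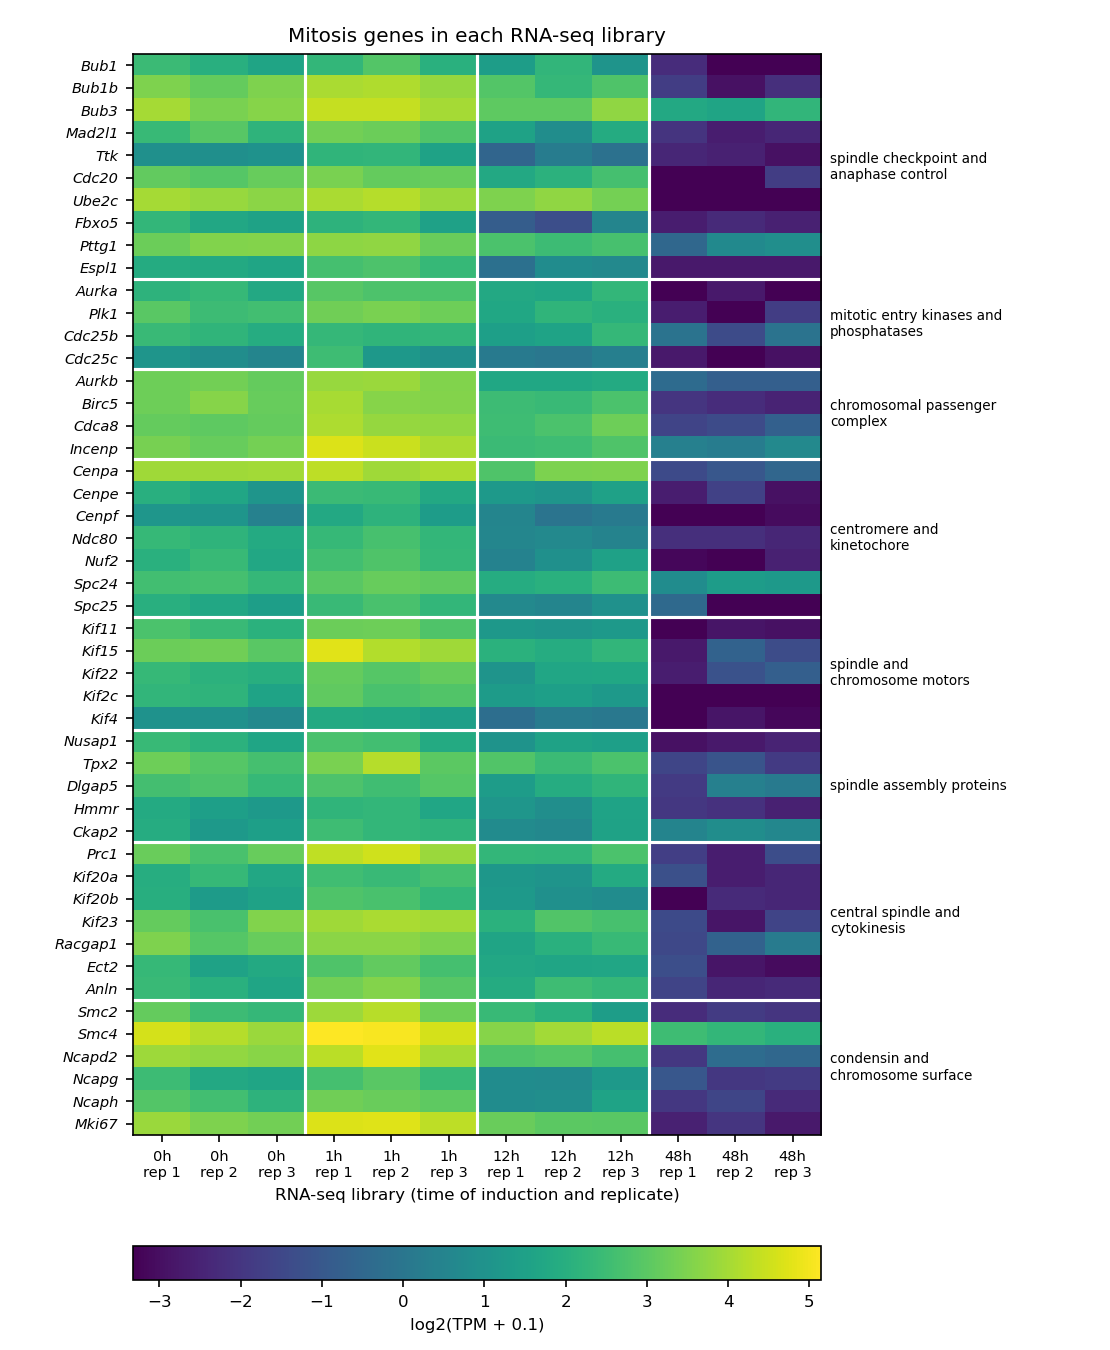
Expression of the 48 mitosis genes in each of the 12 RNA-seq libraries, as log2(TPM + 0.1) on the colour scale, with genes as rows in 8 groups by role and libraries as columns by time and replicate. The 48h columns are the darkest in nearly all rows, with Bub3, Spc24, Ckap2 and Smc4 the brightest there.

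The identity of the cells at each time was checked with marker genes. All 10 B lineage markers were lower at 48h than at 0h (9 of 10 after scaling), and their sum was 301 to 340 TPM at 0h and 29.9 to 41.9 TPM at 48h. Rag1 was the marker at 0 in all 48h libraries. Of 10 macrophage markers the 9 tested were higher, with a sum of 18.4 to 20.2 TPM at 0h and 1000 to 1180 TPM at 48h, and Adgre1 was near 0 throughout. Of 8 neutrophil markers 3 were tested and 2 were higher at 48h (3 after scaling), and they summed to 0 to 0.54 TPM at 0h, 9.64 to 17 TPM at 12h and 1.77 to 4.54 TPM at 48h, with Elane, Mpo, Ctsg, Ltf and S100a9 at 0 at 0h and 48h. T cell and erythroid markers stayed at or below 0.53 TPM in sum, and the 5 fibroblast markers were at 0 in every library. At 48h the mitosis genes and B lineage markers were thus lower and the macrophage markers higher, but the B lineage fall began earlier. After scaling, the mean B lineage sum dropped from 355 to 158 within 1h, and 9 of the 10 markers were called lower. The mean sum of the 48 mitosis genes was 350 before and after that step, with 0 called. By 12h the B lineage sum was down to 66.5, and it ended at 52.4. The mitosis sum was still 174 by 12h and ended at 32.7. The part of cell identity in the fall of the mitosis genes was not tested.

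Among the 10 genes of the spindle checkpoint and anaphase control, 10 were lower at 48h, with a median log2 fold change of -4.70 (-4.53 without Ube2c). Ube2c is the E2 enzyme that starts ubiquitin chains on APC/C substrates. Its TPM was 16.01, 14.2 and 12.6 at 0h, 16.7, 18.4 and 14.4 at 1h, 11.3, 13.2 and 10.2 at 12h and 0, 0 and 0 at 48h. At 12h it kept 81.2% of its 0h TPM, and 65.4% after scaling, where the 12h libraries lay below those at 0h. At 48h it was listed at 0 in all 3 libraries, so no fold is given. Of the 100-base words of its exons, 6.16% are shared with the overlapping gene Tnnc2, so that reads there could be counted for either. Cdc20 activates the APC/C, and its TPM was 8.58, 7.44 and 8.87 at 0h, 10.8, 8.77 and 9 at 1h, 3.37, 4.24 and 6.19 at 12h and 0, 0 and 0.19 at 48h. Its log2 fold change at 48h was -5.88 ± 0.38 (SE, adjusted p = 2.61e-07). Bub1b (BubR1) is the checkpoint protein that inhibits Cdc20, and it had TPM of 11.2, 8.81 and 11.4 at 0h, 16.9, 17.6 and 13.9 at 1h, 7.24, 4.89 and 6.93 at 12h and 0.19, 0.03 and 0.12 at 48h. It changed by -5.70 ± 0.28 (SE, adjusted p = 3.49e-08), and no 48h library came near the earlier ones.

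Bub3, which brings Bub1 and BubR1 to the kinetochore, had a smaller fall. Its TPM was 15.9, 10.7 and 12.1 at 0h, 20.9, 21.1 and 15.9 at 1h, 8.24, 8.09 and 13.2 at 12h and 3.34, 2.95 and 4.66 at 48h, and its log2 fold change at 48h was -1.80 ± 0.25 (SE, adjusted p = 0.000114). The 48h libraries were below every other library but kept 28.3% of the 0h mean. Fbxo5 (Emi1), an inhibitor of the APC/C, had the lowest 12h fold change of the 48. It is given in every library although chosen after its values were seen. It had TPM of 4.82, 3.27 and 2.87 at 0h, 4.3, 4.75 and 2.76 at 1h, 0.46, 0.31 and 1.36 at 12h and 0.06, 0.1 and 0.07 at 48h, and the 3 libraries at 12h were already below those at 0h and 1h. Its log2 fold change was -2.40 ± 0.42 (SE, adjusted p = 0.0014) at 12h and -4.38 at 48h. Pttg1 (securin), which holds separase inactive, kept 11.7% of its 0h TPM at 48h, whereas separase itself (Espl1) kept 1.49%. Ttk (Mps1), the kinase that starts checkpoint signalling, kept 3.5%.

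The 4 kinases and phosphatases of mitotic entry were all lower at 48h. Plk1, a kinase with roles from mitotic entry to cytokinesis, had TPM of 7.73, 5.46 and 5.96 at 0h, 9.94, 10.9 and 9.57 at 1h, 3.17, 4.58 and 4.1 at 12h and 0.06, 0 and 0.19 at 48h and changed by -5.26 ± 0.33 (SE, adjusted p = 2.21e-07). Aurka, the centrosomal kinase that activates Plk1, had TPM of 4.3, 5.01 and 3.33 at 0h, 7.68, 6.76 and 6.57 at 1h, 3.33, 3.15 and 4.76 at 12h and 0, 0.05 and 0 at 48h and changed by -5.22 ± 0.25 (SE, adjusted p = 2.63e-08). Its 12h libraries still overlapped those at 0h in TPM, and 2 of 3 at 48h were at 0. After scaling the 12h libraries lay below those at 0h (2.9 to 3.61, against 4.06 to 5.58), though the change was not called. Cdc25b, a phosphatase that removes inhibitory phosphates from CDK1, had TPM of 5.24, 4.53 and 3.66 at 0h, 4.85, 4.52 and 4.66 at 1h, 2.64, 2.9 and 4.89 at 12h and 0.84, 0.28 and 0.83 at 48h. At -2.71 ± 0.35 (SE, adjusted p = 6.24e-05) it had the fifth smallest fall on this scale, and 14.5% of its 0h mean remained. Cdc25c, its paralog, kept 1.57%, and 10.2% of its words are shared with the overlapping gene Gm3550.

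**Figure D3:**
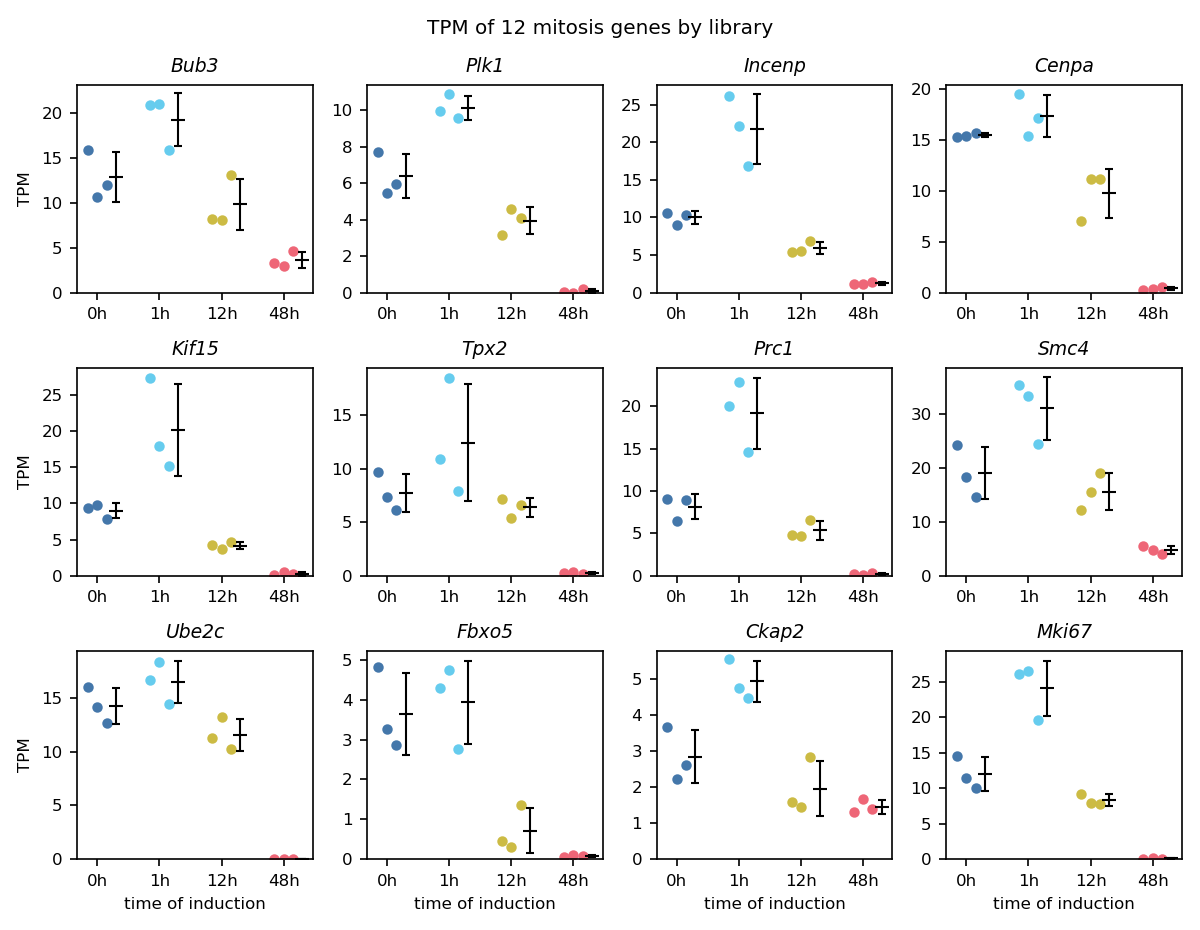
TPM of 12 mitosis genes in each library by time of induction, as points, with the mean and SD of the 3 replicates beside them as a bar. The gene with the highest mean TPM in each of the 8 role groups is shown, with Ube2c, Fbxo5, Ckap2 and Mki67. Ube2c stays at 10.2 TPM or more until 12h and is 0 in all 48h libraries, while Ckap2 lies between 1.3 and 1.68 TPM at 48h.

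The chromosomal passenger complex corrects wrong attachments and later guides cytokinesis. Its 4 genes were all lower at 48h, with a median of -4.12. Incenp, the scaffold that activates Aurora B, had TPM of 10.6, 9.05 and 10.3 at 0h, 26.1, 22.2 and 16.8 at 1h, 5.42, 5.56 and 6.92 at 12h and 1.2, 1.09 and 1.48 at 48h and changed by -2.90 ± 0.20 (SE, adjusted p = 4.28e-07). Cdca8 (borealin), which docks the complex on chromatin with survivin, had TPM of 8.78, 8.23 and 8.75 at 0h, 17.03, 13.8 and 13.7 at 1h, 5.63, 6.62 and 9.61 at 12h and 0.23, 0.28 and 0.51 at 48h and changed by -4.35 ± 0.26 (SE, adjusted p = 1.36e-07). Birc5 (survivin) had TPM of 9.56, 12.2 and 8.88 at 0h, 16.5, 11.99 and 11.8 at 1h, 5.52, 5.19 and 6.67 at 12h and 0.15, 0.11 and 0.08 at 48h. Its change was -5.59 ± 0.21 (SE, adjusted p = 6.28e-09). Aurkb, the kinase of the complex, was lower at 12h in every library, with 9.51 ± 0.601 TPM (SD, n = 3) at 0h and 3.31 ± 0.197 TPM (SD, n = 3) at 12h and a log2 fold change of -1.49 ± 0.18 (SE, adjusted p = 8.03e-05). At 48h Incenp kept 12.6% and Birc5 1.11% of their 0h TPM, and the difference between partners was not tested.

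All 7 centromere and kinetochore genes were lower at 48h, with a median of -4.11. Cenpa, the histone H3 variant that marks centromeres, had TPM of 15.3, 15.4 and 15.7 at 0h, 19.5, 15.4 and 17.1 at 1h, 7.01, 11.2 and 11.2 at 12h and 0.27, 0.39 and 0.59 at 48h and changed by -4.96 ± 0.25 (SE, adjusted p = 3.65e-08). Spc24 had the smallest fall of the group. It is 1 of the 4 subunits of the Ndc80 complex, which binds spindle microtubules, and had TPM of 5.93, 6.21 and 4.92 at 0h, 7.75, 8.95 and 8.31 at 1h, 3.7, 4.04 and 5.45 at 12h and 1.64, 2.45 and 2.27 at 48h. Its log2 fold change was -1.39 ± 0.21 (SE, adjusted p = 0.000182), against -4.39 for Ndc80, -5.09 for Nuf2 and -4.08 for Spc25, its partners in the complex. At 48h Spc24 was at 1.64 TPM or more in every library, while Ndc80 and Nuf2 were at 0.12 TPM or less and Spc25 was at 0 in 2 of 3. The difference between subunits was not tested.

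The 5 motors were all lower at 48h. Kif15, a kinesin that helps to keep the spindle poles apart, had TPM of 9.41, 9.81 and 7.78 at 0h, 27.4, 17.9 and 15.2 at 1h, 4.19, 3.68 and 4.62 at 12h and 0.05, 0.54 and 0.29 at 48h and changed by -4.76 ± 0.42 (SE, adjusted p = 3.45e-06). Kif11 (Eg5), the kinesin that first separates the poles, had TPM of 6.56, 5.29 and 4.17 at 0h, 9.28, 9.71 and 6.96 at 1h, 2.2, 2.03 and 2.23 at 12h and 0, 0.04 and 0.03 at 48h and changed by -5.45 ± 0.23 (SE, adjusted p = 1.21e-08). Its 3 libraries at 12h, at 2.03 to 2.23 TPM, were below all those at 0h. Kif2c, a kinesin that takes microtubules apart at the centromere, started from 4 ± 0.927 TPM (SD, n = 3) in uninduced cells, and all 3 libraries at 48h had it at 0. Kif4 had a mean of 1.74 ± 0.215 TPM (SD, n = 3) at 0h, and 13.3% of its words are shared with the overlapping gene Pdzd11.

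Of the 5 spindle assembly proteins, 4 fell by more than 2 on the log2 scale. Tpx2, which activates Aurora A on spindle microtubules, had TPM of 9.68, 7.38 and 6.14 at 0h, 10.9, 18.5 and 7.95 at 1h, 7.16, 5.42 and 6.65 at 12h and 0.24, 0.36 and 0.17 at 48h and changed by -4.47 ± 0.31 (SE, adjusted p = 5.16e-07). Dlgap5 (HURP), which stabilises the fibres that hold kinetochores, had TPM of 6.03, 6.76 and 4.95 at 0h, 6.82, 5.8 and 7.37 at 1h, 2.47, 3.72 and 4.54 at 12h and 0.17, 1.2 and 1.02 at 48h. Its change was -3.03 ± 0.49 (SE, adjusted p = 0.000343), and the 48h libraries spread widely, from 0.17 to 1.2 TPM. Ckap2, a protein of spindle microtubules, fell least of all 48. It had TPM of 3.67, 2.24 and 2.62 at 0h, 5.57, 4.76 and 4.49 at 1h, 1.6, 1.45 and 2.83 at 12h and 1.3, 1.68 and 1.4 at 48h, and every library at 48h lay below every library at 0h but overlapped those at 12h. Its log2 fold change was -0.89 ± 0.27 (SE, adjusted p = 0.0181), and -0.50 (adjusted p = 0.066) after median-of-ratios scaling. The call was also lost without 0h replicate 1 (adjusted p = 0.0744) and without 48h replicate 1 (adjusted p = 0.0577).

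The central spindle and cytokinesis genes, 7 of 7 lower, had a median of -4.30 and no fall smaller than -3.85. Prc1, which bundles the microtubules of the central spindle, had TPM of 9.1, 6.47 and 8.94 at 0h, 19.99, 22.9 and 14.6 at 1h, 4.8, 4.67 and 6.58 at 12h and 0.2, 0.06 and 0.3 at 48h and changed by -4.93 ± 0.32 (SE, adjusted p = 2.9e-07). Of its words 6.77% are shared with the overlapping gene Rccd1. Kif23, the motor subunit of centralspindlin, had TPM of 8.67, 6.53 and 11.6 at 0h, 15.1, 16.8 and 15.6 at 1h, 4.15, 7.13 and 6.32 at 12h and 0.27, 0.04 and 0.23 at 48h and changed by -5.09 ± 0.36 (SE, adjusted p = 5.17e-07). Anln (anillin), a scaffold of the contractile ring, had TPM of 5.26, 4.05 and 3.07 at 0h, 10.1, 11.9 and 7.63 at 1h, 3.64, 5.58 and 4.89 at 12h and 0.23, 0.09 and 0.1 at 48h. It was the 1 gene of the list with a mean above its 0h mean at 12h, at 114% (91.6% after scaling), and then changed by -4.35 ± 0.29 (SE, adjusted p = 1.7e-06) between 12h and 48h. Racgap1 and Ect2, which activate RhoA at the cell equator, kept 6.63% and 3.27% of their 0h TPM at 48h. Kif20a kept 3.87%, and 21.4% of its words are shared with the overlapping gene Cdc23.

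The last group holds condensin subunits and Mki67. Mki67 (Ki-67) coats mitotic chromosomes and is the usual marker of proliferating cells. It had TPM of 14.6, 11.4 and 10 at 0h, 26.1, 26.6 and 19.6 at 1h, 9.24, 7.91 and 7.78 at 12h and 0.07, 0.15 and 0.05 at 48h and changed by -6.01 ± 0.23 (SE, adjusted p = 6.68e-09), the lowest value on the log2(TPM + 0.1) scale among genes above 0 at 48h, although Cenpf, Aurka, Kif11 and Nuf2 kept a smaller share of their 0h TPM (0.375% to 0.638%, against 0.75% for Mki67). Smc4, the ATPase subunit that condensin I and II share, had the highest mean TPM of the 48. Its TPM was 24.2, 18.2 and 14.6 at 0h, 35.3, 33.3 and 24.4 at 1h, 12.1, 15.6 and 18.99 at 12h and 5.57, 4.82 and 4.08 at 48h, and its log2 fold change was -1.94 ± 0.24 (SE, adjusted p = 4.51e-05), so that 25.4% of the 0h mean remained. Its partner Smc2 had TPM of 8.7, 5.54 and 4.85 at 0h, 14.7, 18.6 and 9.69 at 1h, 5.08, 4.03 and 2.53 at 12h and 0.11, 0.18 and 0.15 at 48h and changed by -4.68 ± 0.32 (SE, adjusted p = 4.53e-07). The ranges of both did not overlap between 0h and 48h, but Smc2 was at 0.18 TPM or less and Smc4 at 4.08 TPM or more. The condensin I subunits Ncapd2, Ncapg and Ncaph changed by -4.68, -3.60 and -4.48, and 10.2% of the words of Ncapg are shared with the overlapping gene Lcorl. The 4 genes that did not pass a log2 fold change of 2 at 48h were thus Ckap2, Spc24, Bub3 and Smc4, and Cdc25b was the nearest beyond it.

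Between 0h and 1h the TPM of mitosis genes shifted upward with most of the transcriptome. By limma 16 of 48 were higher (24.1% of all genes) and 0 were lower (1.41% of all genes), and at an unadjusted p under 0.05 the counts were 25 (36.7% of all genes) and 0 (2.49%). The mean TPM of all 48 was highest at 1h. After median-of-ratios scaling, 0 were higher and 0 lower (5.43% and 4.87% of all genes), with 1 (13.3%) and 2 (11.9%) at an unadjusted p under 0.05, and the highest mean was at 1h in 25 genes and at 0h in 23. The median log2 fold change was 0.66 before and 0.01 after scaling, while that of all genes moved from 0.59 to 0.02. The count of 16 was 6 in replicates 1 and 2 alone, an alternative chosen after seeing the data, 4 without 0h replicate 2, 5 without 0h replicate 3, 3 without 1h replicate 1 and 4 without 1h replicate 2.

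The 5 largest changes called at 1h were those of Anln, Prc1, Smc2, Incenp and Ttk, and none was called after scaling. Anln changed by 1.25 ± 0.29 (SE, adjusted p = 0.0106), and by 0.60 (adjusted p = 0.224) after scaling. Prc1 changed by 1.21 ± 0.32 (SE, adjusted p = 0.019), and by 0.56 (adjusted p = 0.322) after scaling. Smc2 changed by 1.16 ± 0.32 (SE, adjusted p = 0.0235), and by 0.50 (adjusted p = 0.363) after scaling. For all 3 the 1h libraries lay above those at 0h in TPM. Incenp changed by 1.09 ± 0.20 (SE, adjusted p = 0.00304), and by 0.44 (adjusted p = 0.0998) after scaling. Ttk had TPM of 1.8, 1.75 and 1.88 at 0h, 4.59, 4.65 and 2.87 at 1h, 0.58, 1.07 and 0.79 at 12h and 0.09, 0.07 and 0.03 at 48h and changed by 1.08 ± 0.28 (SE, adjusted p = 0.0175), and by 0.45 (adjusted p = 0.368) after scaling.

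At 12h a part of the list had fallen. Lower than at 0h were 15 of 48 genes, against 7.82% of all genes, and 0 were higher, against 22.3%. At an unadjusted p under 0.05 the counts were 25 (11.2% of all genes) and 0 (29.5%). After scaling 32 were lower, against 14.4%, and 0 higher, against 16%, and the unadjusted counts were 40 (19.2%) and 0 (22%). The median was -0.68, against 0.34 for all genes, and -1.01 against 0.07 after scaling. Without overlap between libraries, 29 genes were lower, against 12.4%. The 15 were Mad2l1, Ttk, Fbxo5, Espl1, Aurkb, Birc5, Incenp, Ndc80, Nuf2, Kif11, Kif2c, Kif4, Racgap1, Ncapg and Ncaph. Fbxo5 alone passed a log2 fold change of 2 (1.83% of all genes), and Ndc80 (-1.57), Aurkb (-1.49) and Ncaph (-1.46) came next. The count was 8 without 12h replicate 1 and 8 without 12h replicate 2.

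The median log2 fold change was -1.41 from 1h to 12h and -3.67 from 12h to 48h, against -0.29 and -0.62 for all genes tested. After scaling it was -1.08 and -3.18, against -0.01 for all genes in both steps. The steps differ in length, and in the second most genes end near the 0.1 added to each TPM. The mean sum of the 48 genes was 503 TPM at 1h, 199 TPM at 12h and 22.2 TPM at 48h (350, 174 and 32.7 after scaling). The share of the 0h TPM left at 12h had a median of 60.8%, from 19.4% for Fbxo5 to 114% for Anln (48.8%, from 14.7% to 91.6%, after scaling). From 1h to 12h, 38 of 48 genes were lower (15% of all genes), and 28 after scaling (8.77%), with 0 higher (6.98%, and 11.2% after scaling) by adjusted p. At an unadjusted p under 0.05, 45 were lower (24.3% of all genes) and 0 higher (10.7%), and after scaling 37 (14.8%) and 0 (16.7%). The 5 beyond a log2 fold change of 2 (2.6%) were Ttk, Fbxo5, Espl1, Kif15 and Ncaph. After scaling 1 gene of the list passed it, against 229 of all 16412 genes tested. Without 12h replicate 1 the 38 became 25. From 12h to 48h, 47 of 48 were lower (31.7%), and 46 after scaling (11.9%), with 0 higher (4.1%, and 10.6% after scaling). At an unadjusted p under 0.05, 0 were higher as well (5.26% of all genes, and 15.9% after scaling). With a log2 fold change beyond 2 the latter step held 43 genes (5.28%), and 37 after scaling (2.25%). Ube2c still held 11.6 ± 1.51 TPM (SD, n = 3) at 12h before it reached 0, and Mki67 changed by -5.50 ± 0.23 (SE, adjusted p = 1.28e-07). Fbxo5 changed by -1.98 in this step, from 0.71 ± 0.568 TPM (SD, n = 3) to 0.0767 ± 0.0208 TPM (SD, n = 3). Ckap2 was the exception at -0.35 ± 0.27 (SE, adjusted p = 0.347), and at 0.36 (adjusted p = 0.25) after scaling, where Spc24 was not called either at -0.29 (adjusted p = 0.206).

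**Figure D4:**
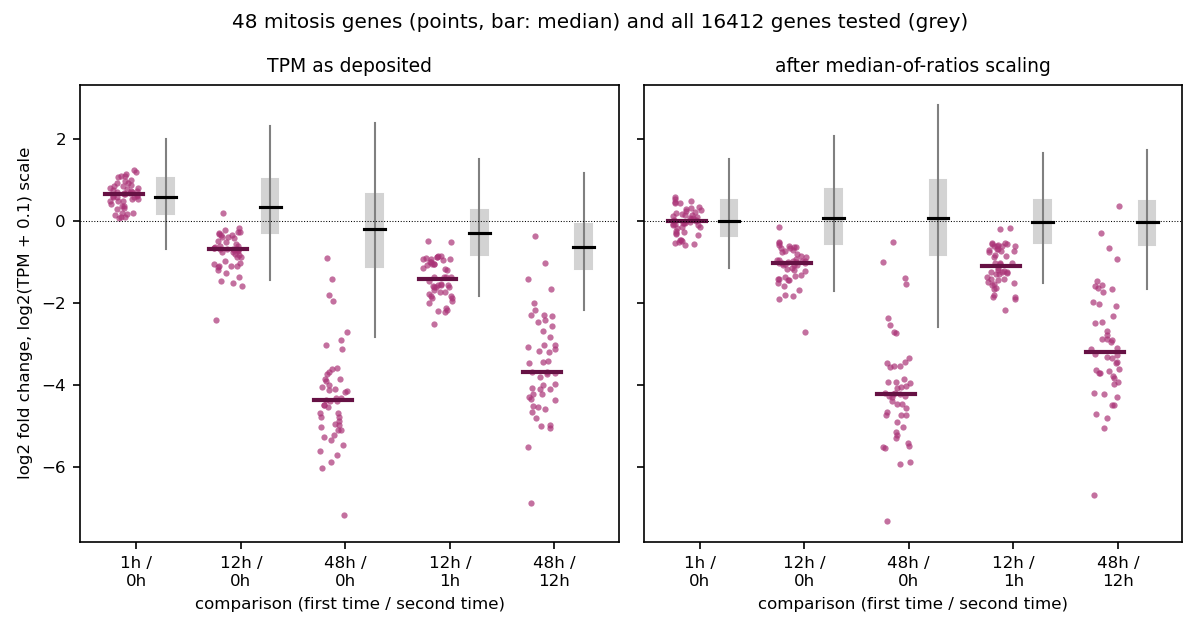
Log2 fold changes of the 48 mitosis genes (points, with their median as a bar) in 5 comparisons of time points, beside all 16412 genes tested (grey box: 25th to 75th percentile, line: 5th to 95th, black bar: median), for TPM as deposited (left) and after median-of-ratios scaling (right). At 1h the list lies on the median of all genes, and at 48h its median is -4.37, against -0.18.

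Genes of the same processes outside the list were examined as well. Of all genes tested, 27.2% were lower at 48h (21.9% after scaling), with a median of -0.18 (0.08 after scaling). Of 6 mitotic cyclin, Cdk1 and Cks genes, 6 were lower at 48h and the median was -6.04. Cdk1, the kinase that drives mitosis, had TPM of 22.8, 24.9 and 14.5 at 0h, 32.1, 28.3 and 27.6 at 1h, 11.2, 9.85 and 11.7 at 12h and 0, 0 and 0.32 at 48h and changed by -6.98 ± 0.46 (SE, adjusted p = 3.01e-07). Cks1b, a small subunit of cyclin-dependent kinases, had TPM of 21.6, 10.8 and 13.8 at 0h, 16.7, 18.8 and 17.2 at 1h, 7.46, 6.67 and 12.6 at 12h and 0.45, 0.24 and 0.33 at 48h and changed by -5.11 ± 0.30 (SE, adjusted p = 1.31e-07). Of 29 other spindle and cytokinesis genes 28 were lower, with a median of -3.69 (-3.47 without the 5 at 0 in a group), and Psrc1, named after its values were seen, was not called (-0.01, and 0.38 after scaling). Top2a, the topoisomerase that untangles sister chromatids, had TPM of 26.7, 20.4 and 20.4 at 0h, 35.3, 37.8 and 32.8 at 1h, 9.63, 8.62 and 11.01 at 12h and 0.44, 0.05 and 0.18 at 48h and changed by -6.31 ± 0.36 (SE, adjusted p = 1.02e-07). Ncaph2, a condensin II subunit, had TPM of 10.7, 9.56 and 10.3 at 0h, 17.7, 12.4 and 14.1 at 1h, 6.22, 6.29 and 8.26 at 12h and 1.47, 3.24 and 2.49 at 48h and changed by -2.11 ± 0.26 (SE, adjusted p = 4.31e-05).

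Of 37 other kinetochore and centromere genes, 34 were lower, with a median of -2.98 (-2.85 without the 3 at 0 in a group). Hjurp, the chaperone that loads CENP-A, had TPM of 10.3, 9.83 and 7.6 at 0h, 24.7, 27.6 and 22.5 at 1h, 5.86, 5.71 and 8.91 at 12h and 0.35, 0.63 and 0.23 at 48h and changed by -4.28 ± 0.28 (SE, adjusted p = 3.29e-07). Pmf1, a subunit of the Mis12 complex, had TPM of 10.3, 6.3 and 10.8 at 0h, 17.2, 12.5 and 12 at 1h, 4.26, 4.82 and 6.44 at 12h and 2.38, 3.4 and 5.06 at 48h and changed by -1.34 ± 0.30 (SE, adjusted p = 0.00342). The 3 that were not called, named after their values were seen, were Mis12 (-0.49), Cenpc1 (-0.17, and 0.23 after scaling) and Cenpl (-0.51). The inner kinetochore protein CENP-C, encoded by Cenpc1, had 3.57 ± 1.07 TPM (SD, n = 3) at 0h and 3.09 ± 0.457 TPM (SD, n = 3) at 48h. After scaling Zwint was not called either, leaving 33.

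The APC/C is the ubiquitin ligase that the checkpoint restrains. Of its subunits, Ube2s and Fzr1, 11 of 16 were lower at 48h (9 after scaling), against 27.2% of all genes (21.9% after scaling). The median was -1.10 (-0.69 after scaling), against -0.18 (0.08 after scaling) for all genes tested. Ube2s, the E2 enzyme that extends ubiquitin chains, had TPM of 44.8, 42.4 and 34.9 at 0h, 70.6, 60.8 and 61.2 at 1h, 20.1, 38.5 and 36.3 at 12h and 4.38, 4.25 and 6.26 at 48h and changed by -3.02 ± 0.25 (SE, adjusted p = 1.7e-06). Anapc5, a scaffold subunit, had TPM of 40.1, 33.5 and 28.3 at 0h, 51.3, 41.6 and 45.6 at 1h, 21.8, 24.97 and 30.6 at 12h and 7.37, 6.59 and 8.36 at 48h and changed by -2.17 ± 0.18 (SE, adjusted p = 2.24e-06). Anapc10, a subunit that binds substrates, was the 1 with a higher mean at 48h. It had TPM of 1.18, 0.3 and 0.74 at 0h, 0.51, 1.74 and 0.9 at 1h, 0.79, 0.56 and 1.41 at 12h and 0.53, 1.58 and 0.55 at 48h. Its change was 0.23 ± 0.56 (SE, adjusted p = 0.789) and the libraries overlapped. The E2 enzyme Ube2c and the activator Cdc20, of the 48 genes, kept 0% and 0.763% of their 0h TPM.

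Of 15 genes for MuvB and its partners, 11 were lower at 48h (10 after scaling), against 27.2% of all genes (21.9% after scaling). The median was -1.51 (-1.11 after scaling). The pocket protein p130, encoded by Rbl2, had TPM of 2.05, 0.98 and 1.07 at 0h, 2.34, 1.96 and 2.19 at 1h, 2.28, 1.49 and 1.66 at 12h and 2.41, 2.85 and 1.45 at 48h. Its change was 0.69 ± 0.32 (SE, adjusted p = 0.1), and 1.10 (adjusted p = 0.0158) after scaling, where it was the 1 gene of the list called higher. Lin37, a MuvB subunit, had TPM of 3.01, 1.41 and 1.34 at 0h, 5.25, 5.45 and 3.87 at 1h, 2.76, 4.42 and 3.77 at 12h and 1.62, 2.06 and 2.82 at 48h and changed by 0.23 ± 0.32 (SE, adjusted p = 0.616). Lin54, the subunit that contacts the CHR and was named after its values were seen, changed by -0.48 ± 0.23 (SE, adjusted p = 0.114). Tfdp1, the dimer partner of E2F factors, had TPM of 16.1, 21.5 and 15.9 at 0h, 26.3, 26.9 and 21.7 at 1h, 5.81, 6.25 and 8.28 at 12h and 3.46, 2.31 and 4.39 at 48h and changed by -2.39 ± 0.24 (SE, adjusted p = 8.92e-06). Rbbp4, the histone-binding subunit, had TPM of 13.7, 13.01 and 15.2 at 0h, 17.8, 18.8 and 13.8 at 1h, 7.05, 6.68 and 7.79 at 12h and 3.22, 5.4 and 3.08 at 48h and changed by -1.86 ± 0.22 (SE, adjusted p = 2.98e-05). The activators B-MYB (Mybl2) and Foxm1, chosen after their values were seen, changed by -4.04 ± 0.30 (SE, adjusted p = 8.33e-07) and -3.89 ± 0.31 (SE, adjusted p = 1.57e-06). At 12h Mybl2 was already at 0.38 to 0.97 TPM, against 6.64 to 8.26 TPM at 0h. In these lists a CHR was present in 16 of 24 promoters of other spindle and cytokinesis genes (66.7%) and 15 of 33 of other kinetochore genes (45.5%). It was present in 3 of 5 of the cyclin list (60%), 4 of 11 of the MuvB list (36.4%) and 3 of 15 of the APC/C list (20%). Among all genes with a promoter the share was 21.7%, and among tested genes 17.5%.

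Promoter contacts of the mitosis genes were read from Promoter Capture Hi-C, in which fragments that hold a promoter (baits) are enriched from a Hi-C library and the interactions of each bait are called with CHiCAGO. The methods of the study give a score cut-off of 5. There was 1 list for each time, from 2 merged replicates, so the differences below have no replicate check. The 0h list holds scores and the 1h, 12h and 48h lists hold whole numbers of no stated unit, so it could not be checked that all 4 lists were made at the same cut-off, and counts and kept contacts across times rest on that. Intervals cover counting error only, as if contacts were independent of each other, although many share a bait. A bait was listed for 47 of the 48 genes, not for Cenpf, and 27 of their 50 bait fragments also hold a start of another gene. For 0h, 1h, 12h and 48h in turn, the 47 genes had 588, 548, 524 and 540 contacts. These were 0.424% (95% Wilson interval 0.391 to 0.459) of all listed contacts at 0h, 0.398% (0.366 to 0.432) at 1h, 0.398% (0.366 to 0.434) at 12h and 0.375% (0.345 to 0.408) at 48h. The intervals overlapped at all times. Of the 588 contacts at 0h, 74 were those of Smc4, so contacts were not independent. The overlap therefore cannot decide whether the share changed.

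In the same order the median number of contacts per gene was 9, 5, 7 and 5, and for 11809 tested genes with a bait it was 8, 7, 7 and 7. From 0h to 48h, 28 of the 47 had fewer contacts, 5 had as many and 14 had more. Thus 59.6% had fewer, against 49% of the tested genes, and 29.8% had more, against 39.7%. Of the 588 contacts at 0h, 60.2% were listed again at 1h and 58.7% at 12h, against 57.6% and 53.2% of all contacts. At 48h 349 (59.4%, interval 55.3 to 63.3) were listed again, against 55.9% of all contacts. The share listed again was thus much the same at 1h as at 48h. From 0h to 48h the genes kept a median of 2.78% of their 0h TPM.

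Single promoters differed in direction. Again in the order of time, Smc4 had 74, 80, 56 and 97 contacts, and its bait also holds the start of Ift80. Nuf2 had 49, 48, 52 and 62, and its bait holds no other gene. Their RNA was lower at 48h, and their contacts were more. No rule set beforehand chose Smc4 and Nuf2, and 28 of the 47 genes had fewer contacts at 48h, against 14 with more. Ncapd2 had 46, 39, 33 and 21 contacts, on baits it shares with Mrpl51 and non-coding genes. Kif11 had 9, 1, 2 and 2, Mki67 15, 11, 9 and 9, and Bub1b 22, 23, 14 and 13. Of the genes whose promoters are printed above, Ube2c had 1, 0, 0 and 1 contacts and Cdc20 1, 1, 0 and 0, too few to compare. Ckap2 had 12, 15, 19 and 18.

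**Figure D5:**
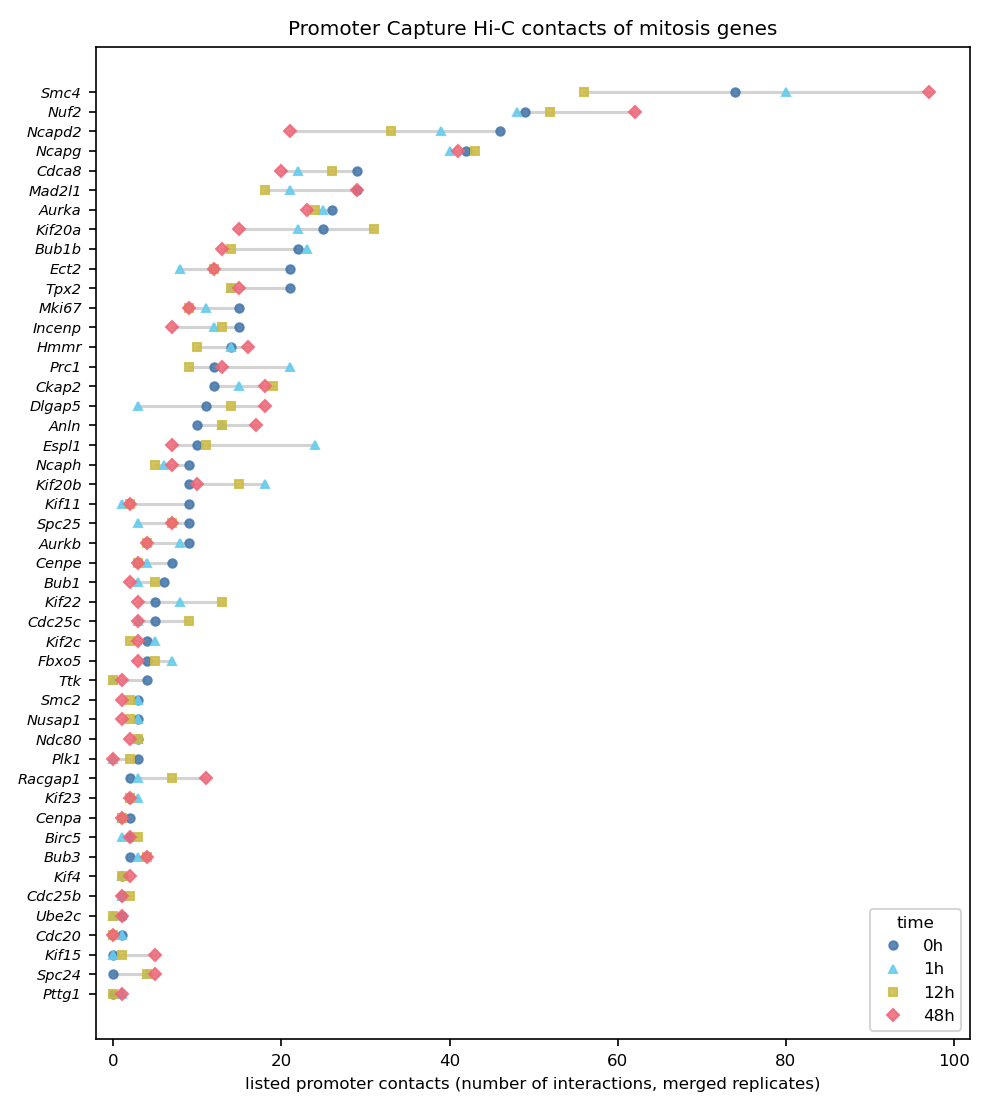
Number of listed Promoter Capture Hi-C contacts of 47 mitosis genes at 0h, 1h, 12h and 48h (1 merged list a time), with genes as rows in the order of their contacts at 0h and a grey line from the lowest to the highest number. Smc4 and Nuf2 have their highest number at 48h, and Ncapd2 and Kif11 have fewer at 48h than at 0h.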

How the data were processed

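RNA-seq libraries (rRNA-depleted, single-end, a kit that does not mark strand) were trimmed by the authors with Trim Galore 0.6.2 and mapped to mm10 with HISAT2 2.1.0, technical replicates were merged, and TPM per gene of Ensembl release 96 were obtained with RSEM. The authors' deposited values are TPM per gene, and counts were not analysed here, so limma took the place of the count test of the study. Reads of overlapping genes on opposite strands in these libraries cannot be told apart. The authors' deposited Promoter Capture Hi-C lists hold a CHiCAGO score at 0h and whole numbers without a stated unit at 1h, 12h and 48h. These values were not used, only the listing of a contact, apart from the 0h score in 1 alternative. Hi-C files were not used here.

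The members and gene lists were chosen with earlier results of these data known. The 16412 genes whose TPM averaged 0.1 or more entered 1 limma model (version 3.58.1, R 4.3.3) of the 4 times over the 12 libraries. It was fitted to log2(TPM + 0.1) by lmFit and tested by contrasts and eBayes, whose prior variance followed the mean, and p-values were two-sided and adjusted over all genes by Benjamini-Hochberg. Fold changes are on this scale and understate changes of low genes. Any 2 libraries differed in the TPM of at least 88.3% of genes, so all 12 were counted separately. Overlaps between exons were found as words of 100 bases in GENCODE exons of GRCm38. A gene's contacts are those of bait fragments that hold one of its annotated starts. Values in each library are given for the 2 genes of each role group with the highest mean TPM, the 5 lowest and 5 highest fold changes at 48h, and up to 5 called at 1h, and of the other lists the 2 with the highest mean and any that moved against their list. Same-numbered replicates were not treated as pairs. Figures were drawn with Python 3.11.15. Alternatives varied the pseudocount, filter, scaling, trend, libraries, replicate block and thresholds.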

Additional observations from a re-analysis of the deposited data

How the results depend on the processing

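At 48h the count of lower genes was 47 or 48 in every alternative run except a log2 fold change beyond 2 (44 genes), where Spc24, Bub3 and Smc4 were not called besides Ckap2. Apart from the fold thresholds, 47 of the 48 genes kept their direction and call in all alternatives, and Ckap2 lost its call in 4. No gene changed direction at 48h, and none of those called at 12h or 1h did. Of the 15 genes called at 12h, however, 5 kept the call in all alternatives, and of the 16 called at 1h 0 did. The count of 16 higher at 1h became 6 with a pseudocount of 0.01, 25 with a pseudocount of 1, 7 with no filter, 6 in replicates 1 and 2 of each time only (chosen after seeing the data), 0 with median-of-ratios scaling, 0 when TPM were rescaled without the 20 most abundant genes, and from 3 to 18 without 1 replicate. The count of 15 lower at 12h became 23 with a pseudocount of 1, 32 with median-of-ratios scaling, 1 with a log2 fold change beyond 2, and from 8 to 22 without 1 replicate. The count of 38 lower at 12h than at 1h became 18 when rescaled without the 20 most abundant genes, and from 25 to 42 without 1 replicate. From 12h to 48h it was 45 to 47 in every alternative of the fit, and 43 with a log2 fold change beyond 2. The cause of these shifts was not tested.

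With the replicate number as a block, 9 genes were higher at 1h in place of 16, and no other count of calls moved by over 1.5 times. Samples were not taken as paired, since the correlation of deviations from the group means was over 0.1 in only 7 of 18 pairs with the same number (median 0.0725), and in 1 of 36 with other numbers (median -0.0525). As a hint from the data, the 4 replicate 3 libraries deviated together (0.07 to 0.257) and from all others (-0.181 to -0.006), while 3 of 4 replicate 1 and 0 of 4 replicate 2 libraries correlated best with their own number. Without replicate 3 the other counts of calls stayed within 1.5 times.

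Without contacts between 2 baits, the shares of contacts for 0h, 1h, 12h and 48h in turn were 0.36%, 0.342%, 0.351% and 0.342%, and with a score of at least 10 the 0h share was 0.59%. TPM hold no depth, and the library depths that the study describes were not used. How few reads lie behind values near 0 at 48h was therefore not examined.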

Other observations

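Spc25 and Cdc25c each had 1 library apart from the other two of its time. Spc25 had TPM of 3.97, 3.25 and 2.59 at 0h, 5.29, 6.44 and 4.8 at 1h, 1.47, 1.33 and 1.87 at 12h and 0.65, 0 and 0 at 48h, so that its level at 48h rests on replicate 1. Cdc25c had 5.68 TPM in 1h replicate 1, against 2.21 and 1.76 TPM in the others. Both were noticed after the values were seen, and groups of 3 were not tested for outlying samples.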
